A study of Homo sapiens with 3 samples.

Results

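RORA, RORB, NR2F1, NR2F2, NR2F6 and NR2F1-AS1 were followed through a chemical conversion of human fibroblasts towards neurons. They are 5 orphan nuclear receptor genes of the ROR and COUP-TF families and the long noncoding RNA gene that lies head to head with NR2F1. The 6 genes were chosen by name with earlier results of these libraries known, and they are 6 of the 32732 genes held by the feature tables of all 3 libraries. Their levels are therefore given as a description, with no test. Single-cell gene counts came from 3 libraries, 1 for each group, so there was no replicate check, and every interval below covers counting error only.

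The BJ day 0 library held cells of BJ, an established human foreskin fibroblast line, of wild-type genotype. The FiN day 3 and FiN day 5 libraries held cells of the same line after 3 and 5 days of induction, labelled as induced neuron cells. The protocol gives 10 µM forskolin, a compound that switches on adenylyl cyclase and so raises cAMP, in an induction medium, then in a maturation medium from day 2, and withdraws it on day 5. The sources used here do not give whether the day 0 cells had met forskolin, and all 3 groups carry the same treatment label. Nuclei suspensions are named in the protocols of the day 0 and day 3 libraries, and dissociated cells in that of day 5. Preparation and day cannot be told apart.

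The libraries kept 16773, 11454 and 9219 cells at days 0, 3 and 5, with 246546451, 18743865 and 51708522 UMIs and medians of 14039, 1324 and 4374 UMIs per cell. The nuclear RNA MALAT1 took 3.14%, 21.6% and 7.35% of UMIs, mitochondrial genes 6.45%, 0.745% and 5.01%, and ribosomal protein genes 17.0%, 4.29% and 2.13%. These shares differed between days 0 and 3 too, although both protocols name nuclei, and their part in the members' differences was not tested. Levels are CPM, a gene's UMIs scaled to a library total of 1000000 on the shared genes, with exact Poisson 95% intervals in parentheses. The label of induced neurons did not match the defining markers at day 3. Of 14 pan-neuronal markers, 5 were at 0 at day 3 (DCX, STMN2, ELAVL4, NEFL and NEFM) and 3, 2 and 14 of the 14 reached 10 CPM at days 0, 3 and 5. Their summed level was 94.3, 51.8 and 4068 CPM at days 0, 3 and 5, and that of 10 fibroblast markers 3814, 5612 and 265 CPM. Pairs of libraries shared 27 to 63 cell barcodes.

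Nuclear receptors are transcription factors whose activity can be set by small lipophilic ligands, and those with no ligand known when they were found were called orphans. RORA and RORB bind DNA as monomers at an AGGTCA motif with an A/T-rich stretch before it, mostly activate, and share target sites with the REV-ERB repressors of the circadian clock. NR2F1, NR2F2 and NR2F6 bind as dimers to repeats of AGGTCA and mostly repress. In the brain, RORB is known as a marker of cortical layer 4 neurons, RORA for its part in Purkinje cells of the cerebellum, and NR2F1 and NR2F2 for regional patterning of the forebrain. NR2F2 is also known from mesenchyme and venous endothelium.

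Promoter windows are shown for the receptor genes that were called higher in day 3 over day 0, to show what lies before their starts. RefSeq sequences on GRCh38.p14 matched 5 of the 6 members, in 12 windows of the 250 bases before a transcript start, and NR2F6 had no entry. The 6 windows that overlap no GENCODE 29 exon could be printed, and 4 of them are given here, 5′ to 3′ on the strand of the gene. Capitals mark CCAAT (or its complement ATTGG) and GGGCGG (or CCGCCC).
RORB, first start, chr9:74497085-74497334, plus strand: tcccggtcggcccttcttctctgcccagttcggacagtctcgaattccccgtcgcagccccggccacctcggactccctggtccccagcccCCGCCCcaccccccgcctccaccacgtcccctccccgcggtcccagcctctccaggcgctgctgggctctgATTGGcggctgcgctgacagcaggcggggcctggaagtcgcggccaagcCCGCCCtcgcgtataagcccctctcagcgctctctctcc
RORB, inner start, chr9:74615284-74615533, plus strand: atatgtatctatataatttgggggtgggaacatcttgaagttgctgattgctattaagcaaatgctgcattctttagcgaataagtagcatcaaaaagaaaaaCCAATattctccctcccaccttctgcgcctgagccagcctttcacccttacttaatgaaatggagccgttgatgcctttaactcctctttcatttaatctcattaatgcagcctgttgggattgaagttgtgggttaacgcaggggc
NR2F1, chr5:93582972-93583221, plus strand: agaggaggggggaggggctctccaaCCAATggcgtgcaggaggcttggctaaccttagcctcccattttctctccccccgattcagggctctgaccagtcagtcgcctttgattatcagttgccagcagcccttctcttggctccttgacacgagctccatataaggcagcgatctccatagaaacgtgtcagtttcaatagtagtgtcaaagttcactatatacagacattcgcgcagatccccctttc
RORA, inner start, chr15:60627531-60627780, minus strand: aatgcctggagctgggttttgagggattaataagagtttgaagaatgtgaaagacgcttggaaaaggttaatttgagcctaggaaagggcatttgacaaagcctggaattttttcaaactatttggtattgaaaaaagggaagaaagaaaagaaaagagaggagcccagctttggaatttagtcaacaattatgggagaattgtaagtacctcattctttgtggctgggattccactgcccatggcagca
The first RORB window was 72.0% G and C and held 23 CG dinucleotides, a CCAAT match 88 bases before the start and GGGCGG matches 159 and 39 bases before it. The inner RORB window was 41.6% G and C, with 4 CG dinucleotides and a CCAAT match 147 bases before its start. The printed NR2F1 window had 52.4% G and C, 8 CG dinucleotides and a CCAAT match 225 bases before the start. The inner NR2F1 window, chr5:93586849-93587098, was not printed. It had 29.2% G and C, 2 CG dinucleotides and a TATAAA match 111 bases before its start. The RORA window had 40.0% G and C, 1 CG dinucleotide and none of the motifs searched. Both strands were searched over 34943 windows of the same length, in which CCAAT occurred in 32.0% and GGGCGG in 42.5%, and each occurred in 5 of the 12 member windows. The full cAMP response element TGACGTCA occurred in 0 of the 12 member windows and 1.63% of all windows, and AGGTCA in 0 of the 12 and 12.1% of all. The other motifs searched were CACGTG, in 1 of the 12 member windows and 6.32% of all, and TATAAA, in 1 of the 12 and 10.8%. A missing match says only that these letters are not in these windows.

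**Figure D1:**
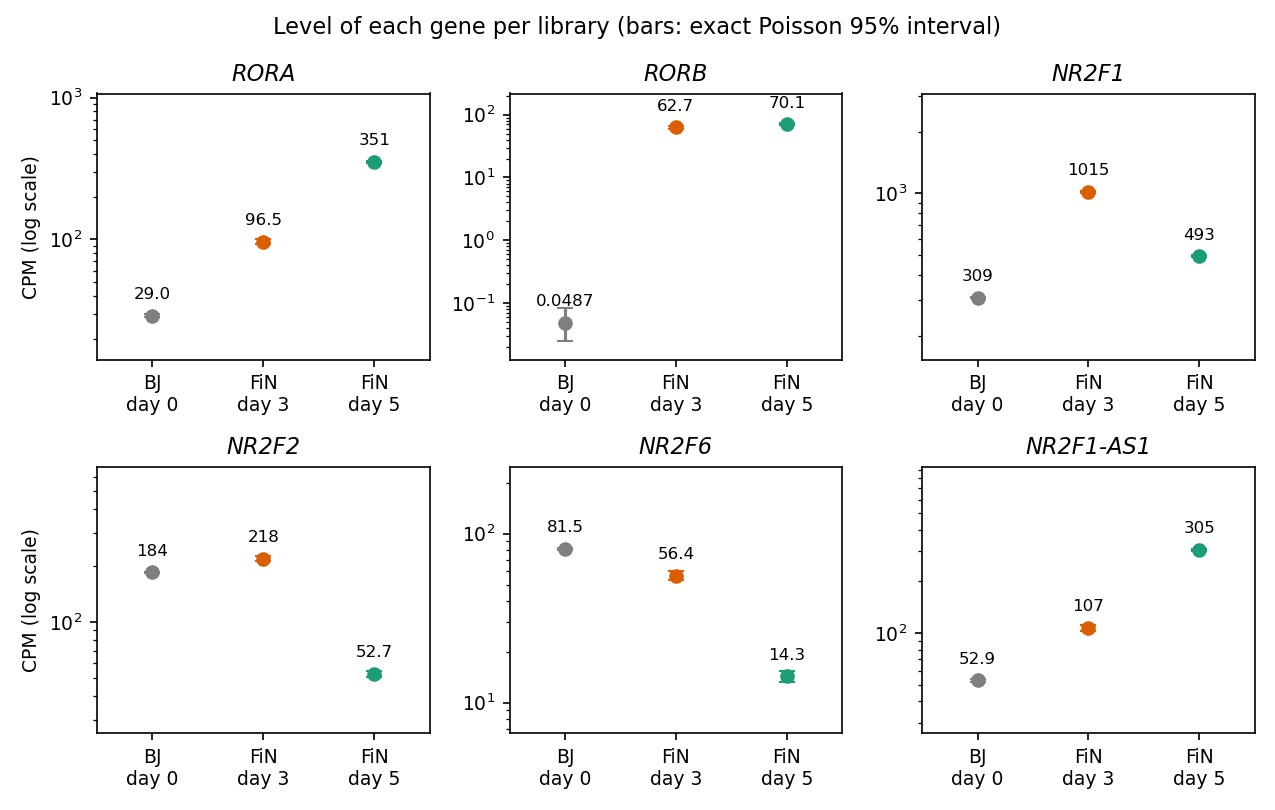
Level of each gene in CPM (log scale) in the BJ day 0, FiN day 3 and FiN day 5 libraries, with exact Poisson 95% intervals as bars, often smaller than the point. RORA and NR2F1-AS1 stand highest at day 5, NR2F1 at day 3 with 1015 CPM, NR2F6 at day 0, and RORB lies at 0.0487 CPM at day 0 against 62.7 and 70.1 CPM later.

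A gene was called higher or lower when its CPM differed at least 2-fold, the larger CPM reached 10 and the intervals stood apart. In day 3 over day 0, 4 of the 6 genes were called higher (RORA, RORB, NR2F1 and NR2F1-AS1) and 0 lower, where 37.6% of all 10431 genes at 10 CPM or more were called higher, 19.1% lower and 56.8% either way. In day 5 over day 3, 2 were higher (RORA and NR2F1-AS1) and 3 lower (NR2F1, NR2F2 and NR2F6), where 36.5% of 12623 genes were higher, 28.7% lower and 65.2% either way. In day 5 over day 0, 3 were higher (RORA, RORB and NR2F1-AS1) and 2 lower (NR2F2 and NR2F6), where 49.1% of 12084 genes were higher, 26.0% lower and 75.1% either way. All 6 genes passed the limit of 10 CPM in every comparison. The comparisons share libraries, and since the genes were chosen with these values known, nothing is read from the counts against their background. The median gene itself stood at a log2 ratio of 0.81 in day 3 over day 0, -0.22 in day 5 over day 3 and 0.71 in day 5 over day 0. TMM scaling, which assumes that most genes do not differ, shifted every log2 ratio by -1.20, 0.06 and -1.14 in these comparisons, so folds against day 0 depend on the scaling by over 2-fold.

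RORB (chr9:74497365-74693177, plus strand) was nearly undetected in the fibroblasts and present in both induced libraries. It had 12 UMIs in 12 of 16773 cells at day 0, 1173 UMIs in 886 of 11454 cells at day 3 and 3569 UMIs in 1681 of 9219 cells at day 5. These are levels of 0.0487 CPM (0.0252 to 0.0850), 62.7 CPM (59.2 to 66.4) and 70.1 CPM (67.8 to 72.4). The day 3 level was 1288-fold that of day 0 (734 to 2499) and the day 5 level 1440-fold (823 to 2789). Day 5 over day 3 was 1.12-fold (1.05 to 1.20), under the limit for a call, although the intervals of the 2 levels did not overlap, and its direction flips to a log2 ratio of -0.48 with the mean of per-cell CPM. With cells thinned to 500 UMIs, 0 of 16773 cells held a RORB UMI at day 0, which allows a share of up to 0.0179% by a limit of 3 cells and 0.0220% by the exact two-sided interval, against 4.03% at day 3 (3.68 to 4.41) and 2.86% at day 5 (2.53 to 3.22). In unthinned cells the shares were 0.0715%, 7.74% and 18.2%.

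RORA (chr15:60488284-61229319, minus strand), the receptor best known for driving the clock gene ARNTL, was higher at each later time. Its level was 29.0 CPM (28.4 to 29.7) at day 0, 96.5 CPM (92.1 to 101) at day 3 and 351 CPM (346 to 356) at day 5, and no interval overlapped another. Day 3 over day 0 was 3.32-fold (3.16 to 3.50), day 5 over day 3 was 3.63-fold (3.46 to 3.82) and day 5 over day 0 was 12.1-fold (11.8 to 12.4). Relative to the median gene the log2 ratios were 0.92, 2.08 and 2.88, and the call in day 3 over day 0 was lost under TMM and the median of ratios, at 0.53 and 0.57. RORA was in 1.10%, 4.37% and 14.8% of cells thinned to 500 UMIs at days 0, 3 and 5.

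NR2F1 (chr5:93583224-93594615, plus strand), also called COUP-TFI, had its peak at day 3. Its level was 309 CPM (307 to 311) at day 0, 1015 CPM (1000 to 1029) at day 3 and 493 CPM (487 to 499) at day 5. The call at day 3 over day 0 (3.28-fold, 3.23 to 3.34) was lost under TMM scaling, where the log2 ratio was 0.52, and the day 5 level, 2.06-fold lower than at day 3 (2.02 to 2.10), lay just past the limit and missed it under TMM, at a log2 ratio of -0.98. Day 5 over day 0 was 1.60-fold (1.57 to 1.62), or -0.04 on the log2 scale relative to the median gene, and under TMM its direction flipped, to -0.46. NR2F1 was in 9.87%, 38.0% and 22.6% of thinned cells.

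NR2F2 (chr15:96325938-96340263, plus strand), or COUP-TFII, and NR2F6 (chr19:17231883-17245940, minus strand), a receptor known for repression in T cells, were lower at day 5 than at both earlier times. NR2F2 stood at 184 CPM (182 to 186), 218 CPM (212 to 225) and 52.7 CPM (50.7 to 54.7) at days 0, 3 and 5. Its day 5 level was 4.15-fold lower than at day 3 (3.95 to 4.36) and 3.49-fold lower than at day 0 (3.36 to 3.63). Day 3 over day 0 was 1.19-fold, and it ranged in log2 from -0.95 under TMM to 1.10 with the mean of per-cell CPM, so its direction flips with the scaling. NR2F6 stood at 81.5 CPM (80.4 to 82.6), 56.4 CPM (53.1 to 59.9) and 14.3 CPM (13.2 to 15.3). Its day 5 level was 3.96-fold lower than at day 3 (3.60 to 4.36) and 5.72-fold lower than at day 0 (5.31 to 6.16). NR2F6 in day 3 over day 0 was not called in CPM and was called lower under TMM, at a log2 ratio of -1.73. In thinned cells NR2F2 was found in 5.68%, 11.1% and 2.76% and NR2F6 in 3.15%, 2.70% and 0.781%.

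NR2F1-AS1 (chr5:93409359-93585648, minus strand) was higher at day 5 than at both earlier times, an order unlike that of NR2F1. It stood at 52.9 CPM (52.0 to 53.8), 107 CPM (103 to 112) and 305 CPM (301 to 310.3). Day 5 over day 3 was 2.85-fold (2.72 to 2.99) and day 5 over day 0 was 5.78-fold (5.64 to 5.91), with log2 ratios of 2.53 for the last and 1.39 under TMM. Day 3 over day 0 was 2.03-fold (1.93 to 2.13) and turned to a log2 ratio of -0.18 under TMM and -0.14 with the median of ratios. NR2F1-AS1 overlaps NR2F1 by 2425 bases, 21.3% of NR2F1. The sources used here do not give whether the counting used strand, so reads in that overlap cannot be told apart.

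**Figure D2:**
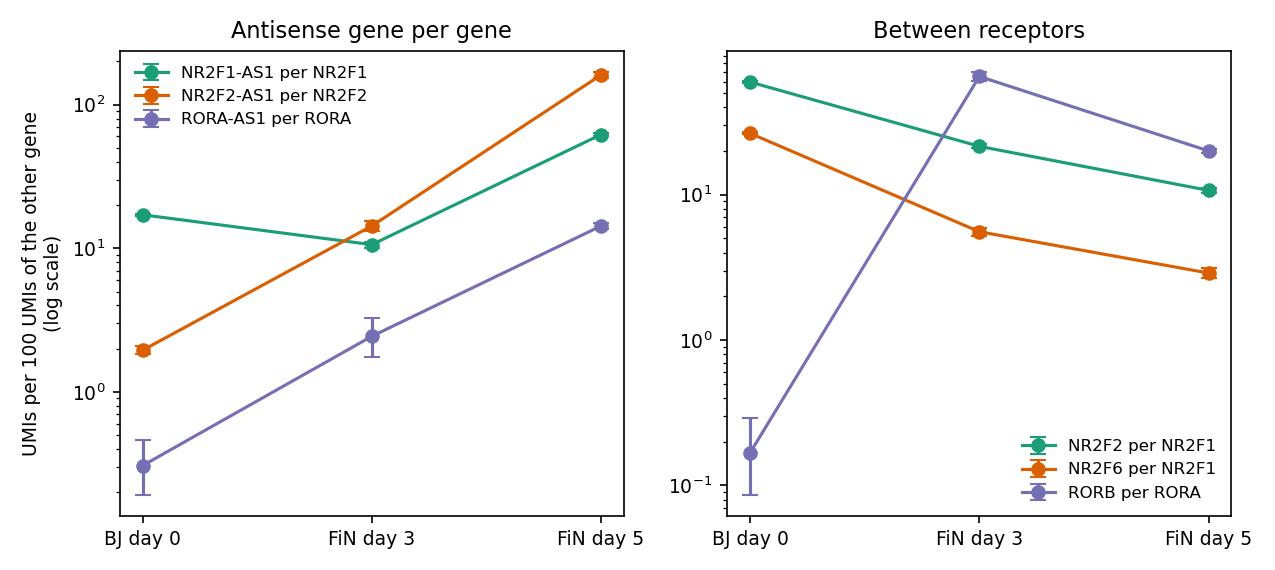
UMIs of a gene per 100 UMIs of its partner in the same library (log scale), at days 0, 3 and 5, with exact 95% intervals as bars. On the left, NR2F1-AS1 per 100 NR2F1 stands at 17.1, 10.6 and 61.9 and NR2F2-AS1 per 100 NR2F2 at 1.95, 14.3 and 161; on the right, NR2F2 and NR2F6 per 100 NR2F1 are lower at each later day.

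Ratios within a library do not depend on how the library is scaled, and they changed between days for every pair of members compared. NR2F2 per 100 NR2F1 UMIs was 59.5 (58.8 to 60.2), 21.5 (20.8 to 22.3) and 10.7 (10.3 to 11.1) at days 0, 3 and 5. NR2F6 per 100 NR2F1 UMIs was 26.4, 5.56 and 2.89, and RORB per 100 RORA UMIs was 0.168 (0.0866 to 0.293) at day 0, 65.0 (60.3 to 69.9) at day 3 and between 19.3 and 20.7 at day 5. The COUP-TF genes therefore did not keep their proportions to each other over the 3 libraries, and RORB took a larger part of the ROR UMIs at day 3 than at days 0 and 5. The antisense partners were all highest relative to their receptor gene at day 5. NR2F1-AS1 per 100 NR2F1 UMIs was 17.1 (16.8 to 17.4), 10.6 (10.1 to 11.1) and 61.9 (60.7 to 63.2), NR2F2-AS1 per 100 NR2F2 UMIs 1.95, 14.3 and 161, and RORA-AS1 per 100 RORA UMIs 0.307, 2.44 and 14.3. NR2F1-AS1 and NR2F2-AS1 have 168570 and 211259 intron bases, against 7078 and 7867 in NR2F1 and NR2F2. RORA-AS1 has 149424, against 723996 in RORA. The part of intron length in these ratios was not tested. RORB-AS1 was at 0 UMIs at days 0 and 3 and at 1.53 CPM at day 5. Overlaps of 1424 bases for NR2F2, 142354 for RORA and 1763 for RORB carry the same limit on strand.

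Over all genes, day 5 over day 3 ratios moved with the length of the introns, and the members are set beside genes of like length here. NR2F1, NR2F2 and NR2F6, with 7078, 7867 and 11382 intron bases, had log2 ratios of -1.04, -2.05 and -1.99, and the median of the 4617 genes with under 20000 intron bases was -1.15. NR2F1-AS1 (168570 intron bases) at 1.51 lay beside a median of 1.65 for 1581 genes of 100000 to 200000 bases. RORB (186222 intron bases) at 0.16 lay below the lower quartile of that class, 0.49. RORA (723996 intron bases) at 1.86 lay below the median of 3.61 for 1328 genes over 200000 bases. In day 5 over day 0 the medians of these classes were -1.11, 2.60 and 4.76, and in day 3 over day 0 they were 0.13, 0.88 and 1.00. The small RORB ratio depended on the setting, so its place below its class was not stable. It was -0.48 with the mean of per-cell CPM, 1.65 under the strict cell filter and 3.33 without day 3 cluster 1. The class itself, at the main setting, had an upper quartile of 3.36. The part of intron length in the members' differences was not tested.

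At day 3, RORB was carried by a minority of the cells that stood together. The 11454 cells were clustered without the 6 genes, which gave clusters 0 to 3 of 7520, 2514, 743 and 677 cells. Cluster 1 held 21.9% of the cells and 1065 of the 1173 RORB UMIs, 90.8% (exact binomial 95% interval 89.0 to 92.4). RORB stood at 336 CPM (316 to 357) in cluster 1, against 6.71, 6.32 and 9.62 CPM in clusters 0, 2 and 3. In cells thinned to 500 UMIs a RORB UMI was found in 16.7% (15.2 to 18.2) of cluster 1, against 0.519%, 0.269% and 0.295% in clusters 0, 2 and 3. The median depth of unthinned cells was 989 UMIs in cluster 1, against 1359, 2099 and 1961 UMIs in clusters 0, 2 and 3, whose shares serve as the background here. Of 213 cells with at least 2 RORB UMIs 206 were in cluster 1, and all 55 cells with at least 3 were. The highest cell held 5.

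**Figure D3:**
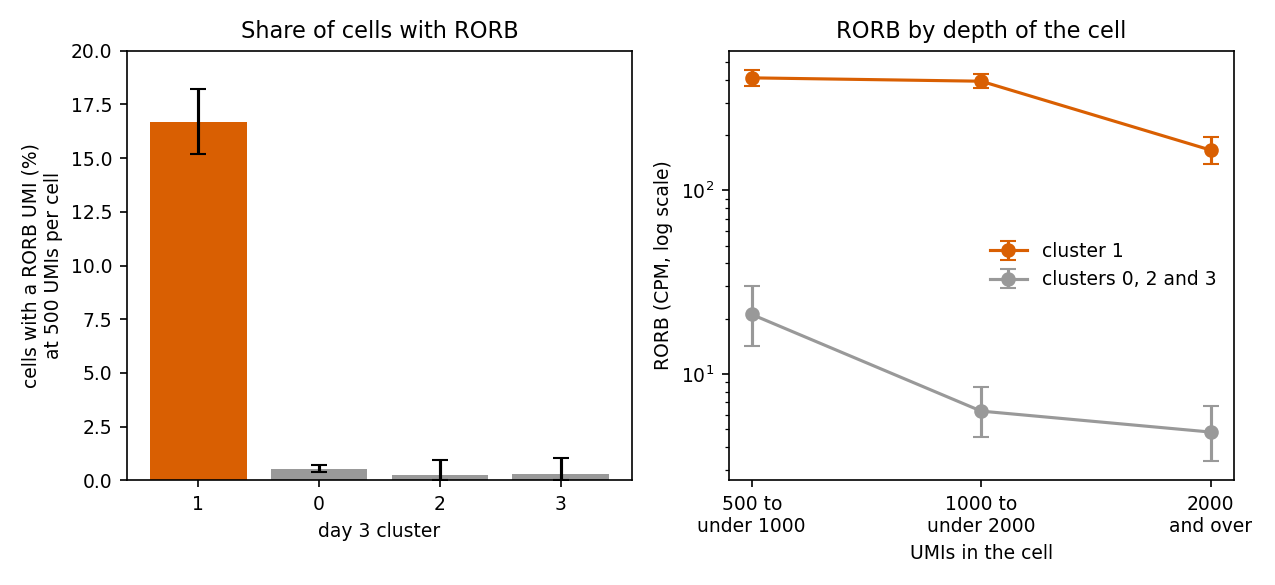
RORB in the FiN day 3 clusters. Left, percent of cells with a RORB UMI after thinning to 500 UMIs (bars from 0, exact binomial 95% intervals), at 16.7% in cluster 1 against at most 0.519% elsewhere; right, RORB in CPM (log scale, exact Poisson 95% intervals) by the UMIs of the cell, at 411, 394 and 166 CPM in cluster 1 against 21.1, 6.27 and 4.82 CPM in clusters 0, 2 and 3.

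The difference was present at every depth. In cells of 500 to under 1000, 1000 to under 2000 and at least 2000 UMIs, RORB stood at 411, 394 and 166 CPM in cluster 1 and at 21.1, 6.27 and 4.82 CPM in the other clusters. Without cluster 1, day 3 over day 0 had a log2 ratio of 7.16 with the day 3 level under 10 CPM, which ends the call, and day 5 over day 3 had one of 3.33, which makes RORB higher at day 5. The strict cell filter also made it higher at day 5, at 1.65.

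Cluster 1 was not given a cell type name. Its 10 fibroblast markers summed to 5803 CPM, against 5573 in the other clusters, and its 14 pan-neuronal markers to 58.7 against 50.4 CPM, with 6 of 14 at 0. TUBB3, NCAM1 and GAP43 were 2-fold above the other clusters, which is as many as the limit used for the day 5 clusters below asks for, but the summed level was far under the 4068 CPM of the day 5 library. The GABA list summed to 36.3 against 2.64 CPM, with GAD1, DLX1, DLX2 and DLX5 above 2-fold and 3 of 7 markers at 0, and the astrocyte list to 149 against 8.56 CPM, through SLC1A3. Of the 5 cortical layer 4 markers, RORB was the 1 that stood 2-fold above the other clusters, and CUX2 was at 0 in the library. The cycling list summed to 1484 against 371 CPM, through TOP2A and CDK1. MALAT1 took 12.6% of UMIs in cluster 1, against 23.1% to 25.8% in the others, and the part of this difference in the RORB pattern was not tested.

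**Figure D4:**
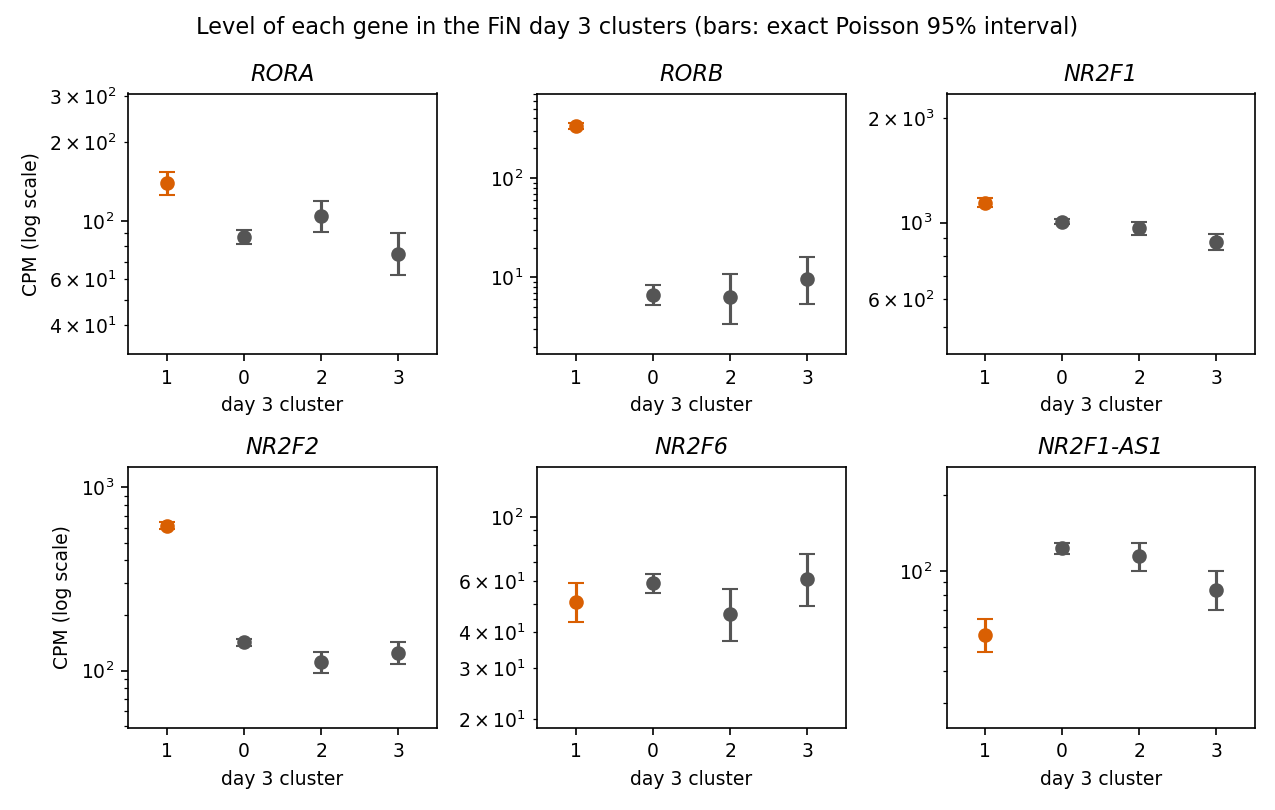
Level of each gene in CPM (log scale) in the FiN day 3 clusters, cluster 1 in orange and clusters 0, 2 and 3 in grey, with exact Poisson 95% intervals as bars. RORB (336 CPM) and NR2F2 (619 CPM) stand apart in cluster 1, NR2F1-AS1 is lowest there (55.6 CPM) and the NR2F6 intervals overlap.

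The other members differed between the day 3 clusters in different ways. NR2F2 was at 619 CPM (592 to 647) in cluster 1, against 143, 111 and 124 CPM in clusters 0, 2 and 3, so that 48.0% of its UMIs lay there. RORA was at 139 CPM (126 to 153) against 86.8, 104 and 75.0 CPM. NR2F1 was at 1143 CPM (1106 to 1181) against 1007, 964 and 878 CPM. NR2F1-AS1 ran the other way, at 55.6 CPM (47.7 to 64.4) against 123, 114 and 84.0 CPM, and NR2F6 at 50.9 CPM (43.3 to 59.3) overlapped clusters 0, 2 and 3 at 59.1, 46.2 and 60.9 CPM. Cells of cluster 1 with and without a RORB UMI (785 and 1729 cells) had NR2F2 at 734 CPM (683 to 788) and 563 CPM (532 to 596) and NR2F1 at 1171 and 1130 CPM, with median depths of 1071 and 957 UMIs. NFIB, a transcription factor gene of the nuclear factor I family, shared this cluster, at 245 CPM against 13.8 CPM in the other clusters. It stood at 312 and 212 CPM in cluster 1 cells with and without RORB.

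Over the 11454 day 3 cells thinned to 500 UMIs, correlations with RORB were weak. A RORB UMI was found in 4.03% of these cells, which by itself keeps r low for any gene. The highest Pearson r values were 0.23 for DDX5, 0.20 for RBM39 and SRSF7 and 0.19 for OGT and VEGFA, followed by SAT1, HNRNPA2B1, PHF20L1, TGFBR1, TOP2A, RPS21 and MEIS2 at 0.15 to 0.17. The lowest were -0.28 for MALAT1 and -0.21 for NEAT1, both nuclear RNAs, followed by MEG3, SGIP1, KCNQ1OT1 and GABPB1-AS1 at -0.11 to -0.07. The 12 highest genes were all higher in cluster 1 than in the other clusters, with OGT at 2495 against 358 CPM. The 6 lowest were all lower there, with MALAT1 at 125758 against 234927 CPM. NR2F2 had an r of 0.12, RORA and NR2F1 0.02, NR2F6 -0.01 and NR2F1-AS1 -0.03. Within the 2514 cells of cluster 1 no gene passed 0.09, which at these counts is no finding.

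At day 5 the members were spread over 11 clusters with other boundaries. Clusters 3, 4, 6, 7 and 8 (2843 cells) were neuron-like, with 3 or more of the 14 pan-neuronal markers 2-fold above the other clusters, a limit set after the clusters were seen. RORB was at 35.2 CPM (32.6 to 38.0) in the neuron-like clusters and at 36.4 CPM (33.3 to 39.7) in clusters 1, 2, 9 and 10, with overlapping intervals. It stood at 129 CPM (124 to 134) in clusters 0 and 5, singled out after their values were seen, which held 67.8% of its UMIs in 3252 cells. Cluster 0 led with TTC6, DGKG and CATSPERB. Its neural progenitor list summed to 5224 CPM against 2396 CPM in the rest, with RFX4 2-fold above. The fibroblast list summed to 339 against 231 CPM, with DCN, LUM, PDGFRB and TWIST1 of its 10 markers 2-fold above. The astrocyte list summed to 482 against 178 CPM, with AQP4, SLC1A3 and ALDH1L1 2-fold above. Cluster 5 had FAM129A and SYNPR among its leading genes. Its fibroblast list summed to 580.0 CPM against 249 CPM in the rest, with COL1A1, COL1A2, COL3A1 and PDGFRB 2-fold above. The GABA list was lower in sum, at 29.4 against 129.8 CPM, although its DLX1 and DLX2 stood 2-fold above. RORB ranged from 6.43 CPM in cluster 7, led by RELN and NXPH1, to 147 CPM in cluster 5. RORB-AS1, with few UMIs, had 58 of them, or 74.4%, in clusters 0 and 5.

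**Figure D5:**
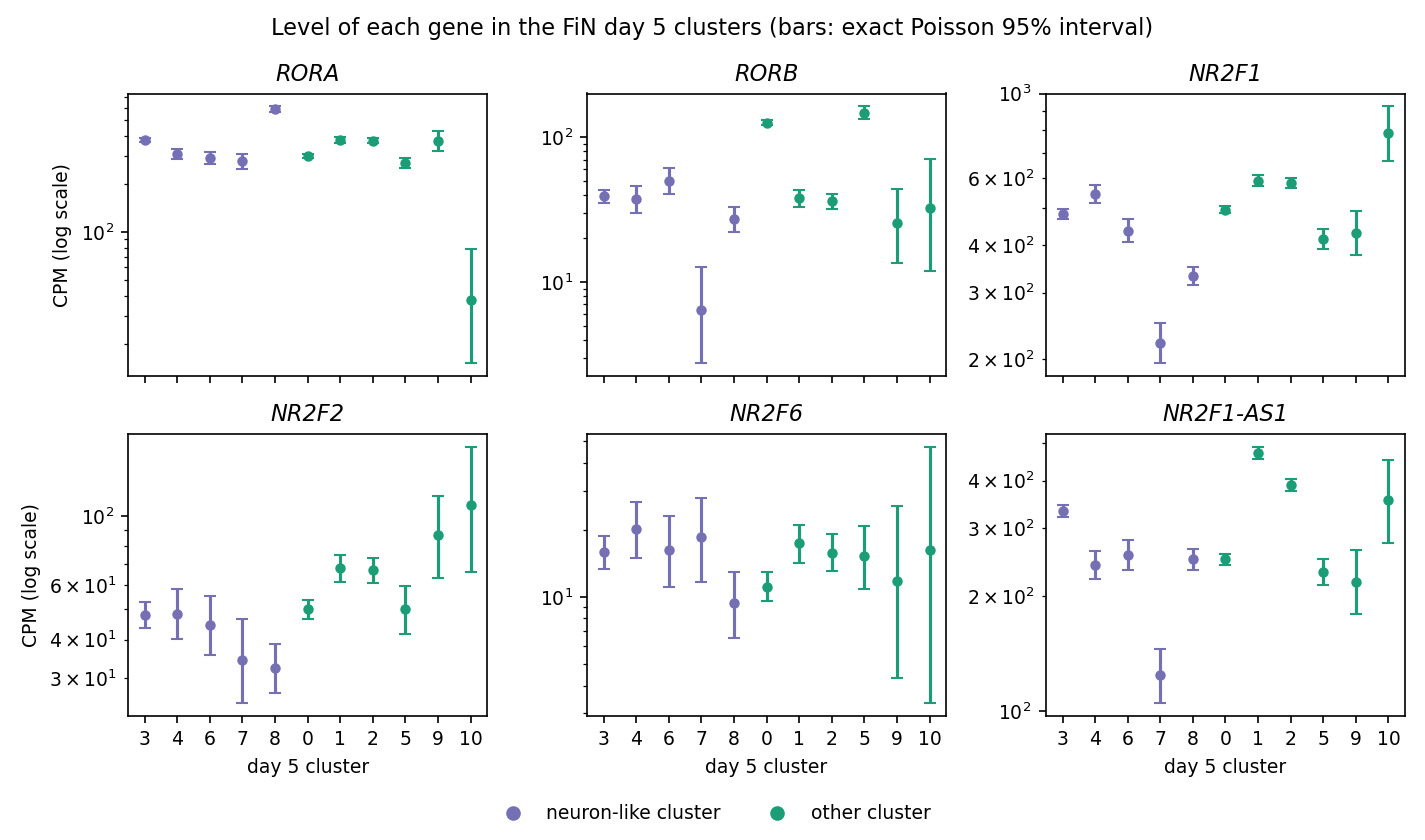
Level of each gene in CPM (log scale) in the 11 FiN day 5 clusters, neuron-like clusters in purple and others in green, with exact Poisson 95% intervals as bars. RORB is highest in clusters 5 (147 CPM) and 0 and lowest in cluster 7 (6.43 CPM), where NR2F1 (221 CPM) and NR2F1-AS1 (124 CPM) are lowest too, and RORA is highest in cluster 8 (586 CPM).

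RORA ranged from 37.7 CPM in cluster 10, a cluster of 54 cells with 1.44% MALAT1, to 586 CPM in cluster 8, led by CNTN5, FAM19A1 and GABRA2, and the other 9 clusters lay at or under 376 CPM. NR2F1 ranged from 221 CPM in cluster 7 to 787 CPM in cluster 10, and NR2F1-AS1 from 124 CPM in cluster 7 to 473 CPM in cluster 1, led by SMOC1 and ENTHD1. NR2F2 ranged from 32.4 CPM in cluster 8 to 108 CPM in cluster 10, and NR2F6 from 9.34 CPM in cluster 8 to 20.1 CPM in cluster 4, with overlapping intervals among most clusters. In the neuron-like clusters together NR2F2 stood at 43.6 CPM (40.7 to 46.7) and NR2F1-AS1 at 282 CPM (274 to 289.7), against 68.5 CPM (64.1 to 73.0) and 419 CPM (408 to 429.8) in clusters 1, 2, 9 and 10. In clusters 0 and 5 NR2F2 stood at 50.1 CPM (47.0 to 53.4) and NR2F1-AS1 at 246 CPM (239 to 253). Pooled, NR2F1-AS1 was thus lower there than in the neuron-like clusters, but single clusters did not separate. It stood at 249 and 231 CPM in clusters 0 and 5. In the neuron-like clusters 3, 4, 6, 7 and 8 it stood at 334, 241, 256, 124 and 249 CPM. Among clusters 1, 2, 9 and 10, cluster 9 was an exception for NR2F1-AS1, at 218 CPM. Pooled, RORA stood at 395 CPM (386 to 404) in the neuron-like clusters and at 369 CPM (359 to 379.5) in clusters 1, 2, 9 and 10. In clusters 0 and 5 it stood at 294 CPM (286 to 301) together and at 297 and 269.7 CPM singly. Cluster by cluster, RORA did not separate the neuron-like clusters from clusters 1, 2, 9 and 10. It stood at 375, 309, 289.8, 278 and 586 CPM in the neuron-like clusters 3, 4, 6, 7 and 8. In clusters 1, 2, 9 and 10 it stood at 376, 372, 372 and 37.7 CPM.

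At day 0 most members stood lower in the clusters with the least MALAT1. Clusters 0 and 2 (7311 of 16773 cells, but 5.52% of UMIs) had MALAT1 at 1679 CPM, against 33188 CPM in the other clusters. RORA stood there at 4.26 CPM against 30.5 CPM, NR2F1 at 61.2 against 324 CPM, NR2F2 at 25.7 against 193 CPM and NR2F6 at 44.6 against 83.6 CPM. NR2F1-AS1 stood at 51.0 CPM (47.3 to 54.9) against 53.0 CPM (52.1 to 53.9), with overlapping intervals. All 12 RORB UMIs were in the other clusters, where they make 0.0515 CPM, and 0 UMIs in clusters 0 and 2 leave an exact upper limit of 0.271 CPM. Among the other clusters, NR2F1 and NR2F2 were highest in cluster 1, at 341 and 203 CPM, where MALAT1 was lowest, at 2.76%. RORA was highest in clusters 6 and 5, where MALAT1 was highest, at 3.94% and 5.41%. Clusters 0 and 2 also had the lowest median depths, at 1001 and 2449 UMIs, and the part of depth was not tested.

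The genes most like each member were sought over the 22 clusters of the 3 libraries by Pearson r of log2(CPM + 1), among 13839 genes. The 22 points share libraries and depth, so r is a description. For RORB they were NFIB (0.94), TAF15, MAF, EDARADD and PCDH19 (0.93), of which MAF had 0.329, 28.1 and 9.48 CPM and PCDH19 0.00811, 40.6 and 35.6 CPM at days 0, 3 and 5. For RORA they were EIF4G3 (0.99), INSR, FER, STAT5B and SBF2, and for NR2F1 they were CPT2 (0.97), TMEM39A, TRIP11, RRNAD1 and SRSF11. For NR2F2 they were PRRC2A, YY1, AEBP1 (0.95), TMEM60 and SLC35A2, and for NR2F6 TMEM173, CDKN1A, FOXL1, FKBP4 and FOXF2, of which CDKN1A, the cyclin-dependent kinase inhibitor p21, had 573, 173 and 5.99 CPM. For NR2F1-AS1 they were LIPG, SLC25A26, KIAA0391, TEX22 and SNAI3-AS1. Between members, r was 0.76 for RORA and RORB, 0.75 and 0.73 for NR2F1-AS1 with RORA and with RORB, 0.55 for NR2F1 and NR2F2, 0.41 for NR2F1 and NR2F1-AS1, -0.72 for RORB and NR2F6 and -0.85 for NR2F6 and NR2F1-AS1.

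Of 9 further NR2 and RXR receptor genes, 4 reached 10 CPM in day 5 over day 3, and 0 were higher and 2 lower, with 1 and 2 under TMM. Over all genes, 36.5% were higher and 28.7% lower in this comparison, and the lists below are to be read beside these shares. The shares were 37.6% and 19.1% in day 3 over day 0 and 49.1% and 26.0% in day 5 over day 0. Under TMM, 1519 of 10462 genes were higher and 4863 lower in day 3 over day 0. In day 5 over day 0, 3969 of 12165 were higher and 5233 lower under TMM. The shares of day 5 over day 3 moved with intron length, at 13.4% higher and 55.1% lower under 20000 intron bases and 84.5% and 5.35% over 200000. NCOA1, NCOA2, ZFPM2, RARB and NR2F2-AS1, named below, are in the longer class and were higher. RXRB, NR1D1, NFIL3, BHLHE40, RARG and CRABP1 are in the shorter class, and all of them but CRABP1 were lower. The part of intron length in the list counts was not tested. For the NR2 and RXR genes, the median log2 ratio was -0.03 over the 5 with at least 3 UMIs in both libraries. It was 0.24 with 3 further genes at the bound set by 3 UMIs. RXRA and RXRB, the common partners of other nuclear receptors, were 3.38-fold and 7.51-fold lower at day 5, at 11.8 and 6.76 CPM against 40.0 and 50.7 CPM at day 3. The testicular receptor genes NR2C1 and NR2C2 had 64.6 and 97.2 CPM at day 5 against 9.49 and 12.9 CPM at day 0, 6.82-fold and 7.52-fold higher. NR2E3, the photoreceptor factor, stayed under 10 CPM (0.669, 6.68 and 6.54 CPM), and HNF4G had 0 UMIs at days 0 and 3 and 8.64 CPM at day 5. In day 3 over day 0, 4 of the 9 reached 10 CPM, and 3 were higher and 0 lower, with 1 and 0 under TMM.

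Of 18 genes of the circadian clock, where ROR receptors and REV-ERB repressors share sites, 13 reached 10 CPM in day 5 over day 3, and 3 were higher and 7 lower, with 3 and 6 under TMM. Their median log2 ratio was -0.95 over all 18 and -0.88 without 1 gene under 3 UMIs in a library, beside -0.22 for all genes. The REV-ERB genes NR1D1 and NR1D2 stood at 0.118 and 11.8 CPM at day 5, against 35.1 and 34.6 CPM at day 3 and 47.7 and 46.0 CPM at day 0. NFIL3, a repressor of the clock output, was 9.80-fold lower at day 5 than at day 3, at 6.34 against 62.2 CPM. BHLHE40, which represses CLOCK targets, was 26.4-fold lower, at 0.668 against 17.6 CPM, and already 5.16-fold lower at day 3 than at day 0 (91.1 CPM). The cryptochrome gene CRY1 was 5.80-fold higher at day 5 than at day 3, at 54.5 against 9.41 CPM. CLOCK was at 42.0, 103 and 114 CPM, and its 2.47-fold call in day 3 over day 0 was lost under TMM, at a log2 ratio of 0.10. Day 3 over day 0 had 2 higher and 3 lower of 12 genes at 10 CPM, with 0 and 9 under TMM. Day 5 over day 0 had 4 and 5 of 12, with 1 and 9 under TMM. Over all genes, too, more were lower than higher under TMM in both comparisons, so nothing about the clock is read from these counts.

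Of 13 coregulators and partners, 11 reached 10 CPM in day 5 over day 3, and 5 were higher and 2 lower, beside the 36.5% and 28.7% of all genes, with 6 and 2 under TMM and a median log2 ratio of 0.96. The coactivator genes NCOA1, NCOA2 and NCOA3 stood at 456, 320.0 and 154 CPM at day 5, against 22.3, 43.9 and 65.2 CPM at day 3, and were 20.4-fold, 7.29-fold and 2.36-fold higher. ZFPM2, a GATA cofactor that also binds NR2F2, was 7.13-fold higher, at 96.0 against 13.5 CPM. The corepressor genes NCOR1 and NRIP1 had 274 and 137 CPM at day 5 against 185 and 70.4 CPM at day 3, under 2-fold. Day 3 over day 0 had 3 higher and 1 lower of 10 genes at 10 CPM, with 1 and 3 under TMM. Day 5 over day 0 had 7 and 1 of 10, with 4 and 2 under TMM.

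Of 15 retinoic acid genes, whose receptors bind the same hexamer, 8 reached 10 CPM in day 5 over day 3, and 4 were higher and 2 lower, in number the same under TMM. The median log2 ratio was 1.78 over all 15, with 4 of them at the bound set by 3 UMIs, and 1.22 over the other 11. The receptor gene RARB stood at 218 CPM at day 5 against 3.26 CPM at day 3, 66.7-fold higher (51.9 to 87.3), while RARG stood at 0.0589 against 33.5 CPM and RARA at 11.2 against 11.0 CPM. CRABP1, a cytosolic retinoic acid binding protein, had 119 CPM at day 5 and 3 UMIs at day 3, a ratio of 745 (255 to 3612). RDH10, which makes retinaldehyde from retinol, was 17.9-fold lower at day 5 than at day 3, at 11.4 against 204 CPM, and 10.1-fold higher at day 3 than at day 0 (20.2 CPM). Day 3 over day 0 had 3 higher and 1 lower of 4 genes at 10 CPM, with 1 and 1 under TMM. Day 5 over day 0 had 4 and 2 of 8, with 4 and 3 under TMM. Of the 5 antisense neighbours, 3 were higher (NR2F1-AS1, NR2F2-AS1 and RORA-AS1) and 0 lower in day 5 over day 3, with a median log2 ratio of 1.51, and RORA-AS2 had 0.00406, 0.0534 and 0.177 CPM at days 0, 3 and 5.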

How the data were processed

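The deposited matrices hold UMI counts per gene and barcode, without normalization by the authors; per the submitters' processing notes they were made with Cell Ranger 4.0.0 on GRCh38. The labels' protocols name a chromatin accessibility kit for all 3 libraries and, at day 5 alone, also a 3′ gene expression kit, while the files hold gene counts. The sources used here do not give the treatment of introns and strand. The files held 17504, 11488 and 2037119 barcodes at days 0, 3 and 5. At day 5, the cell call asked for 2154 UMIs, that is 1/10 of the 99th percentile among the 10000 largest barcodes. Cells needed 500 UMIs, 300 genes and no more than 20% mitochondrial UMIs, and no doublet caller was run. Counts were summed per library and divided by the total over 32732 shared genes. A count of 0 in a gene's printed ratio, and one under 3 in calls and list medians, was set to 3 UMIs, 0.0122, 0.160 and 0.0589 CPM at days 0, 3 and 5. Each library was clustered without the 6 genes in scanpy 1.11.5 with igraph 0.11.9 (2000 variable genes, 30 components, 15 neighbours, Leiden resolution 0.5). Coordinates are GENCODE 29 on GRCh38. TMM came from edgeR 4.0.16 in R 4.3.3. The call rule was tested on simulated data.

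The genes, lists, markers and rules were chosen with earlier results of these data known. Named genes were the 6 members, up to 6 per list by largest CPM, the 5 most like each member over clusters, and the 12 highest and 6 lowest r with RORB over day 3 cells, leaving out items not reported here. The alternatives were other scalings, cell filters and calls, per-cell means, thinning to 1000 UMIs, subtraction of a low-barcode profile and CPM limits of 1 and 50. Leaving out day 0 clusters 0 and 2 or day 3 cluster 1 was added after seeing the data.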

Additional observations from a re-analysis of the deposited data

Results flagged for a closer look

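The day 5 matrix also held 50562 barcodes of 500 to 1000 UMIs, which were not counted as cells, and all 6 genes were found in them above the limit that a count of 0 allows. RORA stood there at 80.6 CPM, against 351 CPM in the day 5 cells, RORB at 18.4 CPM against 70.1 CPM and NR2F1-AS1 at 104 CPM against 305 CPM. NR2F1 stood at 484 CPM against 493 CPM. NR2F2 stood at 107 CPM and NR2F6 at 51.2 CPM, above their levels of 52.7 and 14.3 CPM in the cells. The level of TAGLN limits the part of this profile in the cells to 15.7% of their UMIs, which amounts to 16.9 CPM of NR2F2 and 8.05 CPM of NR2F6. What these barcodes hold was not tested.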

How the results depend on the processing

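No paired analysis was possible because each group is 1 library. The number of members called in day 3 over day 0 was 4, and 2 under TMM and 2 with the median of ratios (1 higher and 1 lower in both): RORA (0.53 and 0.57), NR2F1 (0.52 and 0.55) and NR2F1-AS1 (-0.18 and -0.14, direction reversed) were no longer called, and NR2F6 was lower (-1.73 and -1.69). Over all genes, the called genes that were higher made up 66.3% in day 3 over day 0 and 23.8% under TMM, and 65.4% in day 5 over day 0 and 43.1% under TMM. Calls of NR2F1-AS1 in day 3 over day 0 were also lost without mitochondrial and ribosomal genes (0.71) and with per-cell means (0.89). NR2F1 in day 5 over day 3 missed the limit under TMM (-0.98), per-cell means (-0.94) and thinning (-0.93), and passed it in day 5 over day 0 under the last pair of settings (1.30 and 1.16). RORA, NR2F2, NR2F6 and NR2F1-AS1 kept their calls in day 5 over day 3 and over day 0 under all 12 alternatives of each, and RORB in day 5 over day 0. With a minimum of 50 CPM, the list genes called fell to 6, 15 and 18 in day 3 over day 0, day 5 over day 3 and day 5 over day 0, where fewer genes can pass. The share of day 3 cells with RORB was 4.03% at 500 UMIs, 4.63% at 1000 UMIs, 7.74% unthinned and 0.524% for at least 2 UMIs. The share of RORB UMIs in cluster 1 was 89.6% to 91.1% under the 5 alternatives. RORB at day 0, with 12 UMIs, had the widest interval relative to its level. The cause of the other changes was not tested.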

Other observations

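Among 3571 genes of at least 50 CPM in day 3 cluster 1, RORB had the lowest level in the other clusters relative to it, at 6.95 CPM against 336 CPM in cluster 1, or 2.07%. The next were GNAO1, a G protein subunit gene of neurons, with 123 CPM in cluster 1 and 3.41 CPM in the others (2.77%), the lysosomal fucosidase gene FUCA1 with 75.5 and 2.57 CPM (3.41%), the histone methyltransferase gene SUV39H1 with 69.2 and 2.44 CPM (3.53%) and the transcription factor gene MAF with 138 and 5.66 CPM (4.10%). This order was looked up after the cluster was seen and is a description of 1 library. Cluster 1 was followed because it held most RORB UMIs, and genes entered the order by their level in it. The first place of RORB is therefore not a separate finding.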
